A study of Mus musculus with 9 samples.

Results

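The Id genes encode the inhibitors of differentiation, and all 4 mouse members (Id1, Id2, Id3 and Id4) were among the 19938 genes measured. They were chosen by gene symbol, and each was read by 1 probe set that carries no other symbol. Their levels were compared on 9 arrays in 3 groups of 3. For osteosarcoma there were 3 cell lines, numbered 1, 2 and 3 here, and each has 1 array. These lines were grown from tumours of adult C57BL/6 mice of the genotype Osx-Cre p53fl/fl Rbfl/fl, in which Cre, expressed from the osteoblast-lineage promoter Osx, deletes p53 and Rb. The labels describe all of the lines as fibroblastic, lines 1 and 3 as female and line 2 as male, and they were used subconfluent below passage 8. Osteoblasts were Kusa4b10 cells, a mouse bone marrow stromal line, after 21 days in medium with ascorbate. Pre-osteoblasts were undifferentiated Kusa4b10 cells. All Kusa4b10 cultures come from 1 line, and the labels call them independent samples, so their spread is one between cultures. The p values rest on 1 spread per gene pooled over all 3 groups. Those between the Kusa4b10 groups therefore also take in the spread between the tumour lines. Because the tumour lines and Kusa4b10 have different origins and culture histories, these and tumour state cannot be told apart. Likewise the effects of differentiation, the differentiation medium, the days in it and growth arrest on Kusa4b10 cells cannot be told apart.

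Id proteins are helix-loop-helix proteins without the basic region that binds DNA. They pair with E proteins and so keep these from forming DNA-binding dimers with tissue-specific basic helix-loop-helix (bHLH) factors, which holds cells in an undifferentiated, often dividing state. Id1, Id2 and Id3 are classic direct targets of bone morphogenetic protein (BMP) signalling through SMAD1, SMAD5 and SMAD9, while Id4 is known in mouse to favour osteoblast over fat cell differentiation. Id2 protein can also bind the retinoblastoma protein, and the deubiquitinase USP1 is known from human osteosarcoma cells to stabilise ID proteins.

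The sequences before the start sites are shown for 3 of the 4 genes, because Id2 and Id3 were called in both comparisons with osteoblasts and Id4 in neither; Id1 has no entry in the promoter table used. They are the 250 bases before the start site in RefSeq, build GRCm38.p6, written in the direction of transcription. Capitals mark GGCGCC and GTCTG or its reverse complement CAGAC, letters bound by SMAD proteins, and CCAAT or its reverse complement ATTGG, the box bound by NF-Y. Both strands were searched, and no marked motifs overlapped.
Id2, chr12:25096093-25096342, minus strand: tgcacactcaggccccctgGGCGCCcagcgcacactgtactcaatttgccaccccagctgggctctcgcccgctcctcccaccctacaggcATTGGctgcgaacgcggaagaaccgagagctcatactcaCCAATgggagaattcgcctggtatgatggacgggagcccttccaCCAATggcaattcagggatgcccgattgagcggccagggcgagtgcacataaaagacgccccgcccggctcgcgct
Id3, chr4:136143572-136143821, plus strand: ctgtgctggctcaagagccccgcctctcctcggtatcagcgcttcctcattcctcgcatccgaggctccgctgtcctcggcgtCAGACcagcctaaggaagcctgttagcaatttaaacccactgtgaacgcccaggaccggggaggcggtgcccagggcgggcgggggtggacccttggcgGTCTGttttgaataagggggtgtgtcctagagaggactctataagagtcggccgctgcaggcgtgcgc
Id4, chr13:48260866-48261115, plus strand: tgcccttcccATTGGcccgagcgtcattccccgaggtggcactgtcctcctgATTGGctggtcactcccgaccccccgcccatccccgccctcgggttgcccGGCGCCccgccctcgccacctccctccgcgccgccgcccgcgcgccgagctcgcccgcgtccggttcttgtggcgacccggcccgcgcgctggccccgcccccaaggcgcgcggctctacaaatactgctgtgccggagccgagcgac

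Id2 held 1 GGCGCC, beginning 231 bases before its start, and 3 CCAAT boxes, beginning at 159, 120 and 76 bases. Id4 held 1 GGCGCC at 148 bases and 2 CCAAT boxes at 240 and 198 bases. Id3 held neither, and had the SMAD letters CAGAC at 167 bases and GTCTG at 68 bases. Of 32851 promoters of this length, 9.59% held GGCGCC, 42.2% held GTCTG or CAGAC, and 33.8% held a CCAAT box. The 3 promoters were 62.8%, 62.8% and 75.6% G or C for Id2, Id3 and Id4, against a median of 52.4% over all promoters. A match of these letters is a description and was not tied to binding.

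Values below are log2 expression levels made by the authors with RMA, so that a difference of 1 is a doubling. Array medians over all probe sets lay between 7.43 and 7.56, and the 3 arrays per group limit the precision. Correlations across genes were 0.982 to 0.998 between arrays of a group and 0.950 to 0.970 between groups. Differences are given with the standard error of a limma fit over all 9 arrays, and a gene was called at a Benjamini-Hochberg adjusted p below 0.05 over all genes. The 3 comparisons share arrays and are not independent of each other. Levels are of RNA, were not measured at the protein level, and are not compared between genes, since each probe set has its own scale.

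The labels were checked against marker genes. Over all genes, 27.4% were called in osteosarcoma against osteoblasts and 23.5% in osteosarcoma against pre-osteoblasts. In osteoblasts against pre-osteoblasts 26.1% were called, and the marker counts are to be read beside these shares. All 7 measured osteoblast markers were above the median gene level of 7.97 in each osteoblast culture, and 6 of 7 were higher there than in pre-osteoblasts. In the osteosarcoma lines 2 to 5 of the 7 were above it, and in pre-osteoblasts 2 to 4. Fat cell markers also separated the groups, with 6 of 9 higher in osteoblasts than in pre-osteoblasts and 8 of 9 lower in osteosarcoma than in osteoblasts. In each osteoblast culture 8 of the 9 were above the median gene level, against 3 in each line and 3 to 4 in pre-osteoblasts. Their median rise in osteoblasts against pre-osteoblasts was 2.96, beside 3.805 for the osteoblast markers. The osteoblast cultures thus carried fat cell markers as well, whose part in the Id levels was not tested. Of 8 muscle and myofibroblast markers, 3 were higher in osteosarcoma than in osteoblasts (median 0.42) and 4 lower in osteoblasts than in pre-osteoblasts (median -1.11). These called markers moved in the direction of Id1, Id2 and Id3, and their part in the Id levels was not tested. Between osteosarcoma and pre-osteoblasts 1 of the 8 was higher in osteosarcoma (median -0.07). Of 8 stromal fibroblast markers, 2 were higher and 3 lower in osteosarcoma than in osteoblasts, 3 higher and 1 lower than in pre-osteoblasts, and 3 rose and 1 fell in osteoblasts against pre-osteoblasts. Of 8 chondrocyte markers, 1 was lower in osteosarcoma than in osteoblasts, 1 was higher and 1 lower than in pre-osteoblasts, and 0 were called by limma in osteoblasts against pre-osteoblasts. None of 8 endothelial and 7 haematopoietic markers was called in any comparison by limma, and their mean level per array was 6.41 to 6.77 and 6.52 to 6.62.

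Id2 was high in the osteosarcoma lines, intermediate in pre-osteoblasts and low in osteoblasts, with no overlap between any of the groups. Over all genes, 19.6% were higher in osteosarcoma than in osteoblasts without overlap and 19.1% lower, 15.4% and 20.2% against pre-osteoblasts, and in osteoblasts against pre-osteoblasts 19.1% were higher and 25.1% lower. Id2 was at 12.47, 11.94 and 11.87 in lines 1, 2 and 3, at 9.09, 9.35 and 8.95 in the osteoblast cultures, and at 11.10, 11.03 and 10.87 in the pre-osteoblast cultures. The lowest line stood 2.52 above the highest osteoblast culture and 0.77 above the highest pre-osteoblast culture. Id2 was 7.81-fold higher in osteosarcoma than in osteoblasts (2.97 ± 0.17, adjusted p = 3.06e-05), and 0.216% of all genes were at least as far higher. Against pre-osteoblasts it was 2.13-fold higher in osteosarcoma (1.09 ± 0.17, adjusted p = 0.00252). In osteoblasts Id2 was 3.66-fold below the pre-osteoblast level (-1.87 ± 0.17, adjusted p = 1.80e-04), and 0.973% of genes were at least as far lower. These 3 calls held with any 1 array left out, with the differences between 2.78 and 3.08, between 0.91 and 1.20, and between -1.98 and -1.78.

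Id3 followed the same order of groups with smaller differences. Its level was 10.73, 10.42 and 10.996 in lines 1, 2 and 3, 9.01, 9.45 and 8.74 in osteoblasts, and 10.34, 10.04 and 10.05 in pre-osteoblasts. The groups did not overlap, but line 2 stood only 0.08 above the highest pre-osteoblast culture. Id3 was 3.14-fold higher in osteosarcoma than in osteoblasts (1.65 ± 0.20, adjusted p = 6.84e-04). In osteoblasts it was 2.11-fold below the pre-osteoblast level (-1.07 ± 0.20, adjusted p = 0.00535). Between osteosarcoma and pre-osteoblasts the difference of 0.58 ± 0.20 did not pass the test (adjusted p = 0.0772, 95% interval 0.11 to 1.04). It passed without line 2 (0.72, adjusted p = 0.0397) or without osteoblast culture 2 (0.58, adjusted p = 0.0424). The 2 calls held with any 1 array left out.

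Id1 was lower in osteoblasts than in both other groups. It stood at 9.70, 8.98 and 8.86 in lines 1, 2 and 3, at 8.56, 8.52 and 8.39 in osteoblasts, and at 9.26, 9.44 and 8.97 in pre-osteoblasts. All 3 osteoblast cultures lay below every other array, while the lines and the pre-osteoblasts overlapped. Id1 was 1.61-fold higher in osteosarcoma than in osteoblasts (0.69 ± 0.21, adjusted p = 0.0451) and in osteoblasts 1.66-fold below the pre-osteoblast level (-0.73 ± 0.21, adjusted p = 0.0369). Between osteosarcoma and pre-osteoblasts it differed by -0.04 ± 0.21 (adjusted p = 0.922, 95% interval -0.54 to 0.45), a sign that turned with both other scalings (0.01 with each). It also turned without line 2 (0.06), line 3 (0.12) or pre-osteoblast culture 2 (0.06).

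Both Id1 calls were close to the threshold. The difference between osteosarcoma and osteoblasts was not called without line 1 (0.43, adjusted p = 0.0584). Nor was it called without any 1 of the 6 Kusa4b10 arrays, at adjusted p values of 0.0538 to 0.132, or when the fit held the compared groups alone (adjusted p = 0.0853). The difference between osteoblasts and pre-osteoblasts was not called without osteoblast culture 1, 2 or 3 or pre-osteoblast culture 1 or 2, at adjusted p values of 0.0826 to 0.123.

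Id4 was not called in either comparison with osteoblasts, and was higher in osteosarcoma than in pre-osteoblasts. It was at 8.15, 7.41 and 7.79 in lines 1, 2 and 3, at 7.35, 7.36 and 7.41 in osteoblasts, and at 7.23, 7.03 and 7.28 in pre-osteoblasts. Line 1 was the only array above the median gene level of 7.97, and line 2 lay within the osteoblast range. Against pre-osteoblasts, Id4 was 1.52-fold higher in the lines (0.60 ± 0.16, adjusted p = 0.0307). Differences of 0.41 ± 0.16 between osteosarcoma and osteoblasts (adjusted p = 0.104, 95% interval 0.03 to 0.79) and of 0.19 ± 0.16 between osteoblasts and pre-osteoblasts (adjusted p = 0.474, 95% interval -0.19 to 0.57) did not pass.

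The Id4 call between osteosarcoma and pre-osteoblasts was lost without line 1 (0.42, adjusted p = 0.0534) or line 3 (0.60, adjusted p = 0.0666). It was also lost without osteoblast culture 1 or 3 or any 1 pre-osteoblast culture (adjusted p from 0.0514 to 0.1003), and when the fit held the compared groups alone (0.0883). Without line 2, Id4 was called higher in osteosarcoma than in osteoblasts as well (0.60, adjusted p = 0.00810).

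**Figure D1:**
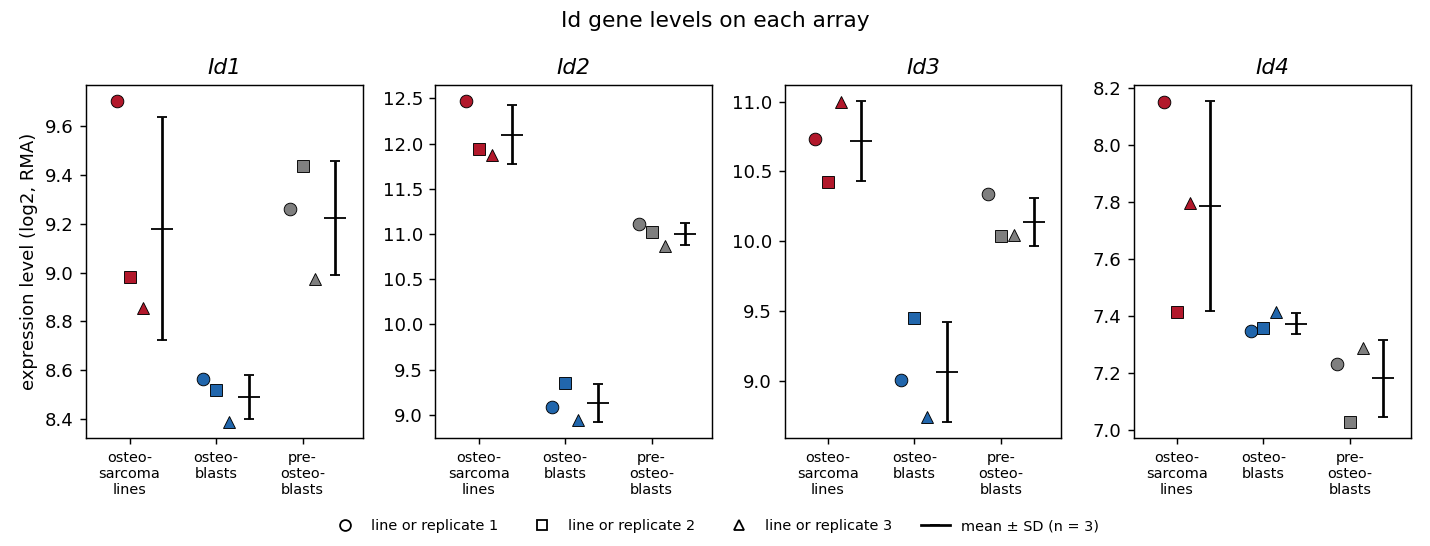
Levels of Id1, Id2, Id3 and Id4 (log2, RMA; each panel has its own axis) on the 9 arrays, as points by group, with the mean and SD of 3 arrays beside them. Id2 and Id3 are highest in the osteosarcoma lines and lowest in osteoblasts without overlap, Id1 is lowest in osteoblasts, and Id4 is spread from 7.41 to 8.15 in the lines.

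Counted together, 3 of the 4 Id genes (Id1, Id2 and Id3) were higher in osteosarcoma than in osteoblasts, where 14.7% of all genes were called higher. Against pre-osteoblasts, 2 of 4 (Id2 and Id4) were higher in osteosarcoma, beside 9.96% of all genes. In osteoblasts against pre-osteoblasts, 3 of 4 (Id1, Id2 and Id3) were lower, beside 15.8% of all genes called lower and 10.3% called higher. No Id gene was called in the opposite direction in any of these comparisons. The count of 2 was 1 without line 1 or 3, osteoblast culture 1 or 3 or any 1 pre-osteoblast culture, and when the fit held the compared groups alone, and Id2 was then the 1 gene called.

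**Figure D2:**
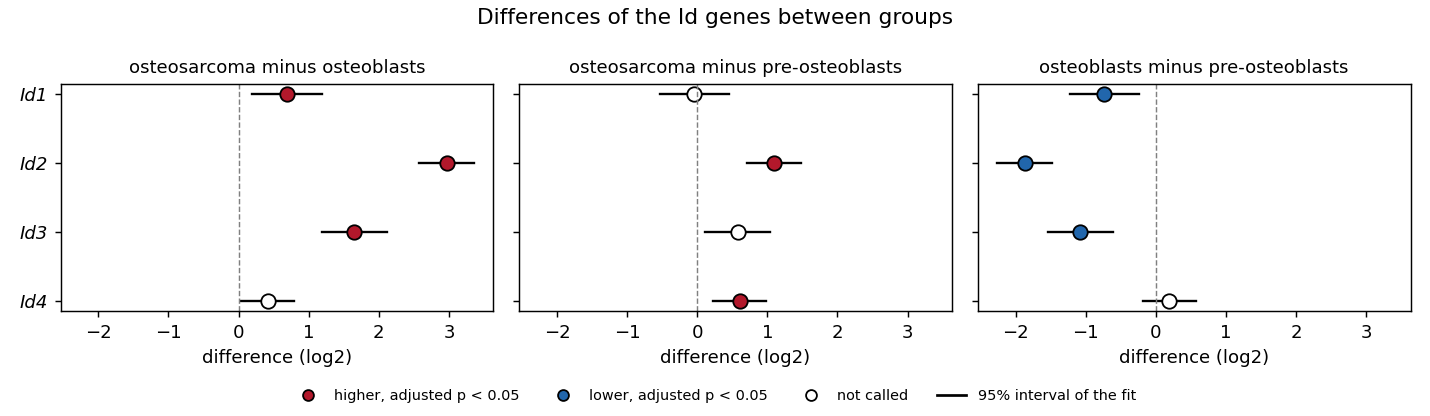
Differences of the 4 Id genes in the 3 comparisons (log2), with 95% intervals of the fit; coloured points were called at an adjusted p below 0.05. Id2 has the largest difference in each comparison, from 2.97 between osteosarcoma and osteoblasts to -1.87 between osteoblasts and pre-osteoblasts, and the Id4 interval crosses 0 between osteoblasts and pre-osteoblasts.

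The osteosarcoma lines differed among themselves, and with 1 array per line these differences were not tested. Line 1 had the highest Id1, Id2 and Id4, and line 3 the highest Id3. The range over the lines was 0.85 for Id1, 0.60 for Id2, 0.57 for Id3 and 0.74 for Id4. Of all genes, 93.3%, 86.5%, 85.5% and 90.9% had a range over the lines that was as small as or smaller than that of Id1, Id2, Id3 and Id4. Within osteoblasts the 4 genes ranged over 0.18, 0.41, 0.71 and 0.07, and within pre-osteoblasts over 0.46, 0.23, 0.30 and 0.26. In osteoblasts 55.8%, 89.7%, 96.9% and 18.3% of all genes had a range as small as or smaller than these. In pre-osteoblasts the shares were 92.4%, 68.5%, 80.4% and 73.4%, so high shares were not confined to the lines.

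Line by line, Id2 stood 3.34, 2.81 and 2.74 above the osteoblast mean in lines 1, 2 and 3, and Id3 stood 1.67, 1.36 and 1.93 above it. Every line was thus above the osteoblast mean by more than the osteoblast range for both genes. Relative to the pre-osteoblast mean, Id1 was 0.48 higher in line 1 but stood at -0.24 in line 2 and -0.37 in line 3. Id4 was 0.97, 0.23 and 0.61 above the pre-osteoblast mean in lines 1, 2 and 3, so line 2 was lowest of the lines for Id3 and Id4.

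Across the 9 arrays Id2 and Id3 were the most alike pair of Id genes, with a Pearson correlation of 0.957. Id1 correlated with Id2 at 0.804 and with Id3 at 0.712, and Id4 with the others at 0.269 to 0.485. The arrays fall into 3 groups, so these values mainly describe group means. Similar genes were sought among 3361 genes above the median level that varied by at least 1 over the arrays, with clone-like names left out. Among these, the nearest to Id2 were Arf6, a small GTPase of membrane traffic (0.992), Plekho2 (0.992) and the glycosyltransferase B3galnt1 (0.991). Arf6 averaged 11.87 in the lines, 10.68 in osteoblasts and 11.47 in pre-osteoblasts. The most opposite to Id2 was Ccnj, which encodes cyclin J (-0.996), with means of 8.05 in the lines, 8.95 in osteoblasts and 8.38 in pre-osteoblasts.

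Nearest to Id3 were the peroxiredoxin gene Prdx4 (0.982), Cnpy4 (0.980) and Atxn1, which encodes ataxin 1 (0.977), and most opposite was Tlnrd1 (-0.983). Nearest to Id1 were Zfp449 (0.952), the secreted kinase Pkdcc (0.943) and the kinase-anchoring scaffold Akap12 (0.935). The most opposite to Id1 was the secreted protease Htra1 (-0.978), which also stands on the list of BMP antagonists. Nearest to Id4 were Arhgap29 (0.955), the matricellular gene Smoc2 (0.947) and Coa3 (0.939), and most opposite was Nadsyn1 (-0.952).

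The BMP pathway lies upstream of the Id genes, and its genes were taken from lists by role. The list counts below are to be read beside the share of all genes called in either direction. That share was 27.4% in osteosarcoma against osteoblasts, 23.5% in osteosarcoma against pre-osteoblasts and 26.1% in osteoblasts against pre-osteoblasts. Of 13 BMP ligands, 2 were higher and 3 lower in osteosarcoma than in osteoblasts, with a list median of 0.02 against -0.02 over all genes. Bmp4, a main bone ligand, was at 10.93, 11.23 and 11.76 in lines 1, 2 and 3, at 12.12, 12.54 and 12.13 in osteoblasts, and at 12.62, 12.62 and 12.59 in pre-osteoblasts. It was thus lower in the lines than in osteoblasts (-0.95 ± 0.20, adjusted p = 0.00836) and than in pre-osteoblasts (-1.30 ± 0.20, adjusted p = 0.00249), in the direction opposite to Id2. Bmp2, another osteogenic ligand, was higher in osteosarcoma than in osteoblasts (0.74 ± 0.14) and in pre-osteoblasts (0.69 ± 0.14). Its means of 6.33 in the lines, 5.58 in osteoblasts and 5.64 in pre-osteoblasts lay below the lower quartile of gene means (6.44). Only 1 of the 13 ligands, Bmp4, had a mean over the arrays above the median gene level of 7.97, so the other ligands counted were dim on average.

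Against pre-osteoblasts, 3 ligands were higher and 1 lower in osteosarcoma (median 0.11), a total of 4 that was 2 without any 1 pre-osteoblast culture. Bmp5 was 1.64 ± 0.39 and Bmp6 1.03 ± 0.27 higher, and neither was called without a pre-osteoblast culture (adjusted p up to 0.0583 and 0.0852). In osteoblasts against pre-osteoblasts 2 ligands rose and none fell (median 0.11), namely Bmp8a (1.92 ± 0.06) and Bmp3 (0.37), which encodes an atypical ligand that opposes the others.

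Of 11 BMP receptors and co-receptors, 3 were higher in osteosarcoma than in osteoblasts (median 0.10), 4 higher than in pre-osteoblasts (median 0.14), and none was lower. The 3 of 11 were near the share of all genes called (27.4%). The counts include Rgma against osteoblasts (0.38 ± 0.115) and Acvr2a against pre-osteoblasts (1.19 ± 0.36). Their calls were lost in 7 and 8 of 9 fits with 1 array left out. Endoglin, Eng, a co-receptor for BMP9 and TGF-beta, was at 10.63, 10.45 and 10.72 in the lines, at 7.55, 7.76 and 7.48 in osteoblasts, and at 7.81, 7.70 and 7.78 in pre-osteoblasts. Its difference was 3.00 ± 0.09 against osteoblasts (adjusted p = 2.56e-06) and 2.84 ± 0.09 against pre-osteoblasts (adjusted p = 3.80e-06). The type I receptor Bmpr1b was also higher, by 1.51 ± 0.20 and 1.68 ± 0.20. Its means of 6.94 in the lines, 5.43 in osteoblasts and 5.25 in pre-osteoblasts all lay below the median gene level of 7.97. The type I receptor Bmpr1a was not called, at 0.10 ± 0.06 against osteoblasts and 0.12 ± 0.06 against pre-osteoblasts. In osteoblasts against pre-osteoblasts 2 receptors rose (median 0.10), the type II receptor Bmpr2 (0.36 ± 0.06) and Rgmb (0.66). The count was 4 without line 2, when the fit held the compared groups alone and with the replicate number as a block, with Acvr2a (0.73) and Tgfbr3 (-0.74) added.

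SMADs carry the signal to the nucleus, with SMAD6 and SMAD7 as inhibitors that BMP itself induces. Of 8 genes of this branch, SMURF ubiquitin ligases included, 5 were higher and 1 lower in osteosarcoma than in osteoblasts (median 0.26). That total of 6 was 3 without osteoblast culture 1 or 3. Smad6 was at 9.88, 9.54 and 10.13 in lines 1, 2 and 3, at 8.94, 9.27 and 9.002 in osteoblasts, and at 10.10, 9.96 and 9.78 in pre-osteoblasts, so that osteoblasts were lowest. Against pre-osteoblasts, 3 were higher in osteosarcoma (median 0.18), among them Smad4, the common partner (0.43 ± 0.06). In osteoblasts against pre-osteoblasts 3 fell and 1 rose (median -0.01). Smad9 (-0.998 ± 0.13) and Smad6 (-0.88 ± 0.16) fell, as did Smad7 (-0.34 ± 0.08), whose call was lost without osteoblast culture 1 or 2 or pre-osteoblast culture 1 or 2 (adjusted p up to 0.0621).

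Other known BMP target genes were set beside the Id genes. Of 14 measured, 5 were higher and 3 lower in osteosarcoma than in osteoblasts (median 0.39), and 6 fell and 4 rose in osteoblasts against pre-osteoblasts (median -0.33). Atoh8, a bHLH gene induced by BMP and SMAD signalling, was at 9.92, 9.21 and 10.03 in the lines, at 7.82, 8.02 and 7.67 in osteoblasts, and at 9.58, 9.21 and 9.21 in pre-osteoblasts. Like Id1, Id2 and Id3, it was higher in osteosarcoma than in osteoblasts (1.88 ± 0.22, adjusted p = 5.27e-04) and fell in osteoblasts against pre-osteoblasts (-1.49 ± 0.22, adjusted p = 0.00162). Smad6, Smad7, Smad9 and the homeobox gene Dlx2 were called in the same directions in both comparisons, Dlx2 by 1.06 ± 0.06 and -0.49 ± 0.06.

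Not all BMP targets moved this way. Hey1, which also responds to Notch, was lower in osteosarcoma than in osteoblasts (-2.09 ± 0.14) and rose in osteoblasts against pre-osteoblasts (1.80 ± 0.14), as did the homeobox gene Dlx3 (-1.17 ± 0.09 and 1.05 ± 0.09). Bambi, a pseudoreceptor, rose in osteoblasts (0.87 ± 0.17), and Nog, the antagonist noggin, was not called (0.06 ± 0.06). Between osteosarcoma and pre-osteoblasts 2 targets were higher and 1 lower (median -0.07), a total of 3 that was 7 without line 2. The lower one was Tnfrsf11b, which encodes osteoprotegerin (-2.66 ± 0.43).

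**Figure D3:**
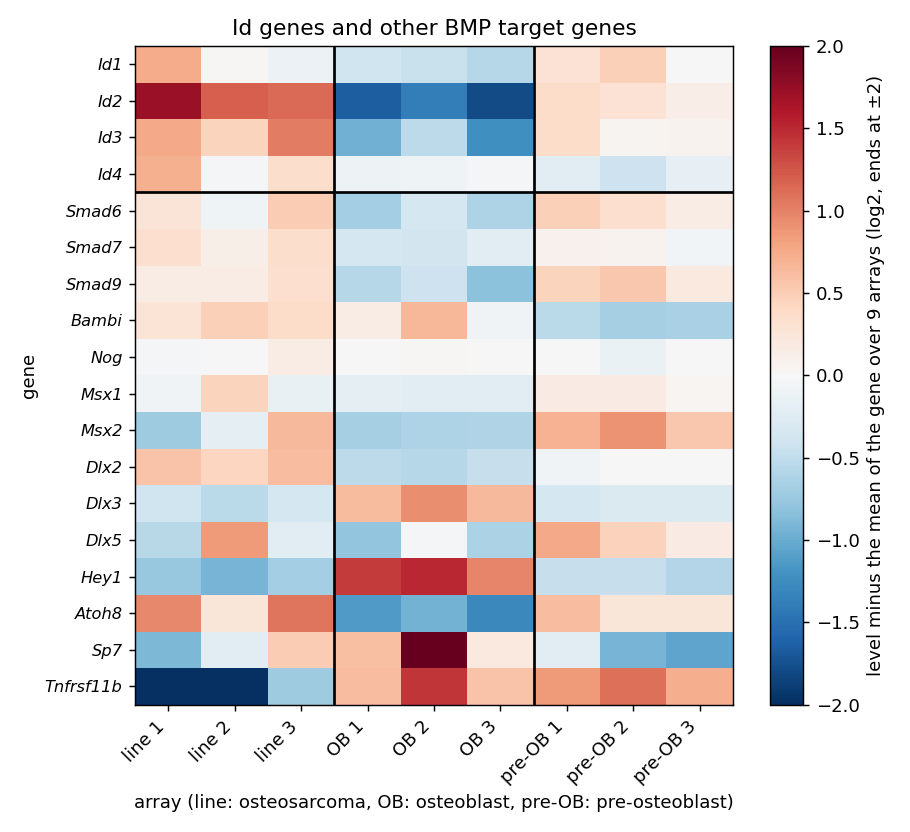
Levels of the 4 Id genes and 14 other BMP target genes on each array, as the level minus the mean of the gene over 9 arrays (log2, colours end at 2 in each direction). Id2 and Id3 share their low osteoblast columns with Smad6, Smad9 and Atoh8, while Hey1 and Dlx3 are high there.

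Antagonists hold BMP ligands or receptors inactive. Of 13 measured, 5 rose and 1 fell in osteoblasts against pre-osteoblasts, with a list median of 0.55 against -0.0036 over all genes. The antagonist Chrdl1 was at 9.82, 9.04 and 9.12 in osteoblasts, against 6.59, 6.58 and 6.38 in pre-osteoblasts (2.81 ± 0.35, adjusted p = 8.54e-04). Bmper rose by 1.60 ± 0.41, a call lost without osteoblast culture 1 or 2 or pre-osteoblast culture 1 or 3 (adjusted p up to 0.0691). Fstl3, a follistatin-like inhibitor, fell (-0.90 ± 0.10).

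In osteosarcoma against osteoblasts none of the antagonists was higher and 3 were lower (median -0.18), a count that was 5 without line 3. Gremlin 1, Grem1, was lower by -1.15 ± 0.32, a call lost without line 2 or any 1 osteoblast culture (adjusted p up to 0.101). Against pre-osteoblasts 3 were higher and 1 lower in osteosarcoma (median 0.03), with Chrdl1 at 1.72 ± 0.35 and Fstl3 at -1.38 ± 0.10.

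E proteins are the direct partners of Id proteins. Tcf3, which encodes E2A, was at 10.48, 10.56 and 10.34 in lines 1, 2 and 3, at 9.998, 10.14 and 9.96 in osteoblasts, and at 10.66, 10.78 and 10.66 in pre-osteoblasts. Like Id2 it was lowest in osteoblasts, below pre-osteoblasts by -0.67 ± 0.08 (adjusted p = 5.79e-04), and it was higher in osteosarcoma than in osteoblasts (0.43 ± 0.08, adjusted p = 0.00430). Tcf4 rose in osteoblasts against pre-osteoblasts (0.42 ± 0.11), a call lost without osteoblast culture 1 or 3 or any 1 pre-osteoblast culture (adjusted p up to 0.0822). Tcf12 was not called in any comparison, with differences of 0.00, 0.09 and 0.09. None of the 3 was called between osteosarcoma and pre-osteoblasts, and 1 was called without line 1 or without line 2.

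Id proteins block the pairing of E proteins with tissue-specific bHLH factors. Only 4 of the 23 measured (Twist1, Twist2, Scx and Atoh8) had a mean above the median gene level of 7.97, so counts over the list say little about the others. Of the 23, 2 were higher in osteosarcoma than in osteoblasts (Atoh8 and Twist1, list median -0.05), 1 higher than in pre-osteoblasts (Twist1, median 0.03), and 1 lower in osteoblasts than in pre-osteoblasts (Atoh8, median 0.01). Over all genes, 27.4%, 23.5% and 26.1% were called in these comparisons. The total of 1 between osteosarcoma and pre-osteoblasts was 3 without line 1 and 2 without line 2, osteoblast culture 2 or pre-osteoblast culture 2. Twist1, which restrains early osteoblast differentiation, was at 9.98, 10.25 and 10.20 in the lines, at 8.96, 9.41 and 9.09 in osteoblasts, and at 9.41, 9.39 and 9.18 in pre-osteoblasts. It was higher in osteosarcoma by 0.99 ± 0.13 against osteoblasts and 0.82 ± 0.13 against pre-osteoblasts. Twist2 stood at -0.77 ± 0.30 in osteoblasts against pre-osteoblasts and did not pass.

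The HES, HEY and BHLHE repressors are bHLH proteins that bind DNA without E proteins. Of 8 measured, 4 were lower and none higher in osteosarcoma than in osteoblasts (median -0.36), and 4 rose and 1 fell in osteoblasts against pre-osteoblasts (median 0.36). That total of 5 was 3 without osteoblast culture 2 or pre-osteoblast culture 2 or 3. Hes1, a Notch target, was at 7.61, 8.37 and 6.86 in the lines, at 9.62, 9.18 and 10.13 in osteoblasts, and at 6.84, 7.05 and 6.64 in pre-osteoblasts. It was lower in osteosarcoma than in osteoblasts by -2.03 ± 0.37 and rose in osteoblasts against pre-osteoblasts by 2.80 ± 0.37. Between osteosarcoma and pre-osteoblasts only Hes6 was called, at -0.255 ± 0.08 (adjusted p = 0.0437, list median -0.06). That call was lost in 7 of 9 fits with 1 array left out, namely without line 2 or 3, any 1 osteoblast culture or pre-osteoblast culture 1 or 3 (adjusted p up to 0.130), and under 5 other settings.

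Id proteins are short-lived, and a further list held genes that act on their stability. Of 7 measured, 5 were higher and none lower in osteosarcoma than in osteoblasts (median 0.49), 3 higher and 2 lower than in pre-osteoblasts (median 0.34), and 2 fell in osteoblasts against pre-osteoblasts (median -0.08). Usp1 was at 10.90, 11.23 and 10.54 in lines 1, 2 and 3, at 10.08, 9.80 and 10.24 in osteoblasts, and at 10.10, 10.64 and 10.58 in pre-osteoblasts. It was higher in osteosarcoma than in osteoblasts (0.85 ± 0.21, adjusted p = 0.0166), a call lost without osteoblast culture 2 (adjusted p = 0.0580), and not called against pre-osteoblasts (0.45 ± 0.21). Its cofactor Wdr48 (0.37 ± 0.07 and 0.48 ± 0.07) and the COP9 subunit Cops5 (0.98 ± 0.13 and 0.90 ± 0.13) were higher in osteosarcoma than in osteoblasts and in pre-osteoblasts. The list also holds genes of Id2 breakdown, Fzr1, the activator of the ubiquitin ligase that marks Id2, and Anapc2, a core subunit of that ligase. Both were higher in osteosarcoma than in osteoblasts (0.51 ± 0.12 and 0.49 ± 0.09), the Fzr1 call being lost without osteoblast culture 3 (adjusted p = 0.0660). Both were lower in osteosarcoma than in pre-osteoblasts (-0.56 ± 0.12 and -0.48 ± 0.09) and fell in osteoblasts against pre-osteoblasts (-1.06 ± 0.12 and -0.97 ± 0.09). The count of 5 thus joins genes with opposite known effects on Id proteins.

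Among 13 cell cycle partners and targets of Id proteins, 4 were higher and 3 lower in osteosarcoma than in osteoblasts (median -0.04), and 4 higher and 1 lower than in pre-osteoblasts (median 0.15). In osteoblasts against pre-osteoblasts 3 rose and 2 fell (median -0.08). Cdkn2a, a tumour suppressor locus, was higher in osteosarcoma than in osteoblasts (4.45 ± 0.18) and than in pre-osteoblasts (4.38 ± 0.18). Rb1, which the Cre deletes in part, was at 9.26, 9.67 and 9.85 in the lines, at 10.65, 10.63 and 10.64 in osteoblasts, and at 9.28, 9.28 and 9.17 in pre-osteoblasts. Its probe set is not known to lie in the deleted part, so these values do not check the deletion. Of the other pocket protein genes, Rbl1 was higher (1.21 ± 0.16) and Rbl2 lower (-0.81 ± 0.05) in osteosarcoma than in osteoblasts. Ets2, whose protein Id proteins can bind, was at 9.63, 9.70 and 9.79 in the lines, at 10.83, 10.53 and 10.90 in osteoblasts, and at 8.72, 8.61 and 8.51 in pre-osteoblasts. It rose in osteoblasts against pre-osteoblasts (2.14 ± 0.10), where Id1, Id2 and Id3 fell. The 2 list genes that fell there too were Ccne1 (-1.31) and Rbl1 (-1.19), and Ccne1 was higher in osteosarcoma than in osteoblasts (1.87). The CDK inhibitor gene Cdkn2b was higher in osteosarcoma than in osteoblasts (1.33 ± 0.15) and than in pre-osteoblasts (1.03 ± 0.15), and Cdkn1b was not called in any comparison.

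The last list held factors known to raise or lower Id transcription. Of 15 measured, 2 were higher and 7 lower in osteosarcoma than in osteoblasts (median -0.36), 3 higher and 4 lower than in pre-osteoblasts (median -0.08), and 5 rose and 3 fell in osteoblasts against pre-osteoblasts (median 0.28). That total of 8 was 5 without pre-osteoblast culture 2. Atf3, which with SMAD3 represses Id1 in epithelial cells, was at 8.00, 8.24 and 7.78 in the lines, at 9.40, 9.77 and 10.04 in osteoblasts, and at 8.24, 7.72 and 7.83 in pre-osteoblasts. It rose in osteoblasts against pre-osteoblasts (1.80 ± 0.20) and was lower in osteosarcoma than in osteoblasts (-1.73 ± 0.20). Klf4, a zinc finger factor, rose further in osteoblasts against pre-osteoblasts (2.60 ± 0.29, adjusted p = 5.06e-04) and was lower in osteosarcoma than in osteoblasts (-1.47 ± 0.29). It was higher in osteosarcoma than in pre-osteoblasts (1.13 ± 0.29), a call lost without any 1 pre-osteoblast culture (adjusted p up to 0.0840). Myc, which can activate Id2 transcription, rose in osteoblasts against pre-osteoblasts (0.95 ± 0.14, adjusted p = 0.00186), where Id1, Id2 and Id3 fell. Myc was not called between osteosarcoma and osteoblasts (0.19 ± 0.14) and was higher in osteosarcoma than in pre-osteoblasts (1.14 ± 0.14). Tgfb1 was lower in osteosarcoma by -1.78 ± 0.11 against osteoblasts and -0.96 ± 0.11 against pre-osteoblasts, and rose in osteoblasts (0.82 ± 0.11). Zfp423, a zinc finger partner of BMP SMADs, was lower in osteosarcoma than in both (-0.83 ± 0.14 and -1.19 ± 0.14). The 3 that fell in osteoblasts against pre-osteoblasts, as Id1, Id2 and Id3 did, were Stat5a (-1.12), Srf (-0.71) and Stat3 (-0.33). The Srf call was lost in 1 and the Stat3 call in 6 of 9 fits with 1 array left out. The 2 higher in osteosarcoma than in osteoblasts were Runx1t1 (0.72) and Srf (0.63), the Srf call being lost in 3 of 9 such fits. Stat5a was lower there (-0.36).

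**Figure D4:**
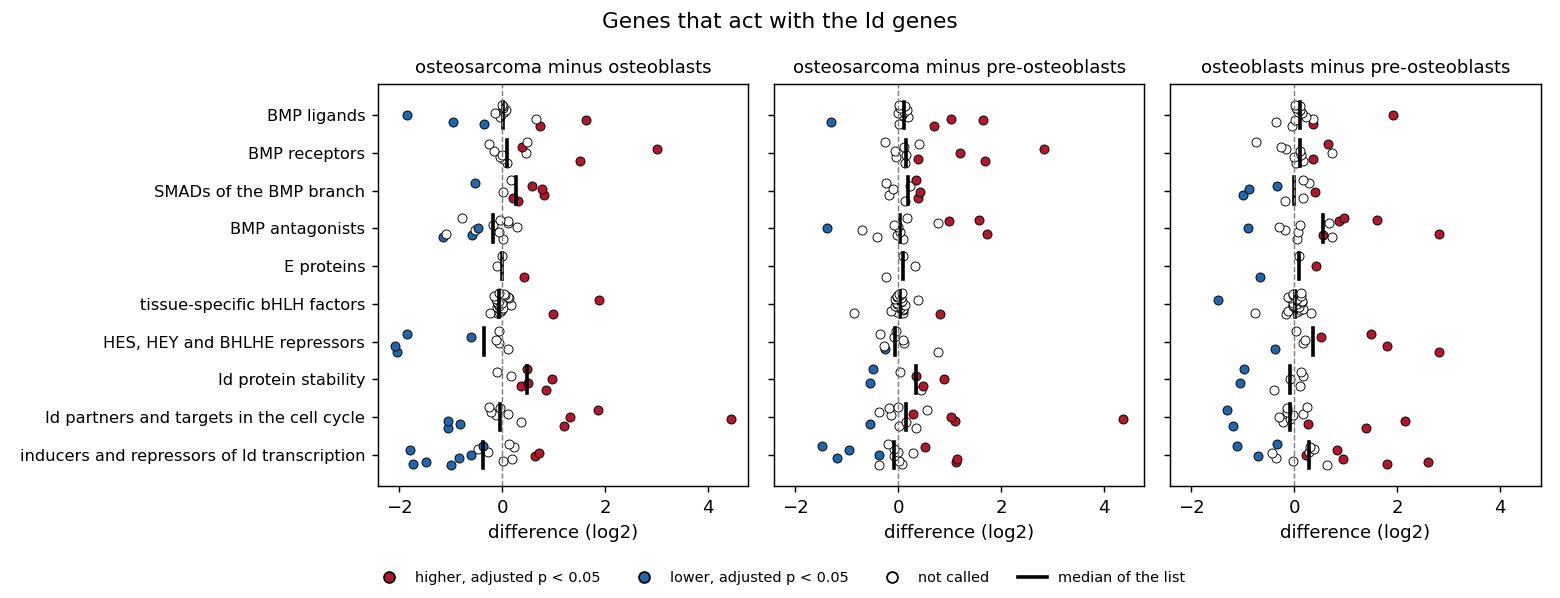
Differences (log2) of the genes on 10 lists in the 3 comparisons, 1 point per gene, coloured where called at an adjusted p below 0.05, with the list median as a bar. BMP antagonists have a median of 0.55 in osteoblasts against pre-osteoblasts, HES, HEY and BHLHE repressors one of -0.36 and Id protein stability genes one of 0.49 in osteosarcoma against osteoblasts.

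Over these lists, the other BMP targets included, 120 different genes were measured. The lists were chosen with earlier results of these data known and were not matched to all genes by level. The shares that follow are thus a description and not a test of the lists. In osteosarcoma against osteoblasts 25 were higher and 23 lower, which is 40.0% called beside 27.4% of all genes. Against pre-osteoblasts 24 were higher and 11 lower in osteosarcoma, 29.2% beside 23.5%. In osteoblasts against pre-osteoblasts 25 rose and 16 fell, 34.2% beside 26.1%. Of the called genes in these comparisons, 36 of 48, 26 of 35 and 30 of 41 kept the call with any 1 array left out.

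Mitosis genes were low in the osteoblasts, as were Id1, Id2 and Id3. All 14 measured mitosis genes were higher in osteosarcoma than in osteoblasts (median 2.43) and lower in osteoblasts than in pre-osteoblasts (median -2.25). Their mean level was 11.12, 11.57 and 11.16 in lines 1, 2 and 3, 8.50, 9.53 and 8.30 in osteoblasts, and 10.60, 11.44 and 11.07 in pre-osteoblasts. Osteoblast culture 2, the culture with the highest mitosis level, also had the highest Id2 (9.35) and Id3 (9.45) of the osteoblasts, but not the highest Id1. Without it, Id2 and Id3 were still called in osteosarcoma against osteoblasts and in osteoblasts against pre-osteoblasts. The osteoblast cultures kept there had the lower mitosis levels (8.50 and 8.30), so these calls do not bear on the part of cell division. For Id2 and Id3 the other groups did not share the order seen in the osteoblasts. Pre-osteoblast culture 1 had the lowest mitosis level of the pre-osteoblasts and the highest Id2 (11.10) and Id3 (10.34). The highest Id1 of the pre-osteoblasts (9.44) was in culture 2, which also had their highest mitosis level (11.44). Line 1 had the lowest mitosis level of the lines and the highest Id1 (9.70) and Id2 (12.47). Line 2 had the highest mitosis level of the lines and the lowest Id3 (10.42). Between osteosarcoma and pre-osteoblasts none of the 14 mitosis genes was called (median 0.28), and Id2 was higher by 1.09. The part of cell division in the Id levels was not tested, and in bulk cultures fewer cells with a transcript and less RNA per cell cannot be told apart.

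**Figure D5:**
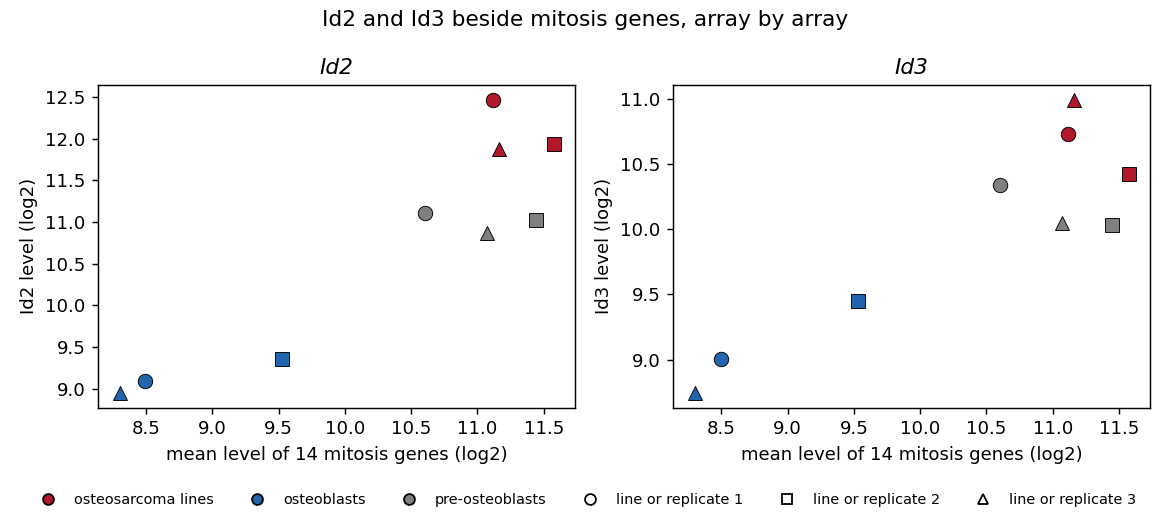
Levels of Id2 and Id3 (log2) on each array against the mean level of 14 mitosis genes (log2), with colours for the groups and shapes for lines or replicates. Osteoblasts are low on both axes with replicate 2 nearest to the other arrays, and at similar mitosis levels the osteosarcoma lines lie above the pre-osteoblasts for both genes.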

How the data were processed

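RNA of 9 samples was measured on arrays. The authors deposited 1 log2 value per probe set and array; RMA and the build mm9 are named in the submitters' processing notes, and the version of RMA is not given in the sources used here. It brings arrays to a common distribution, so differences are relative ones. The table held 35556 probe sets, of which 21789 had 1 gene symbol in the platform annotation, 1621 several and 12146 none. Where a gene had several probe sets (999 genes) the one with the highest mean was used, which gave 19938 genes; 21698 probe sets matched a reference gene table by identifier, which changed 0 symbols.

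Groups came from the labels, and osteosarcoma lines were numbered in accession order. The 9 arrays entered 1 linear model with a mean per group, in limma 3.58.1 (R 4.3.3), with moderated variances from eBayes, 6 residual degrees of freedom, 2.19 from the prior and no filter. On simulated data the fit recovered 44% to 58% of changes of 0.5 log2 and 78% to 88% of changes of 1, by comparison. False calls made up 3.45% to 7.06% of its calls, the most in osteosarcoma against pre-osteoblasts. Tests were two-sided and adjusted by Benjamini-Hochberg over all genes. Lists were described by counts and medians, without a set test.

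The members and lists were chosen with earlier results of these data known. Named genes are the 4 Id genes, up to 4 called members with the largest differences and the first uncalled member per list and comparison (some are left out here), and the 3 genes nearest to and the 1 most opposite to each Id gene by Pearson correlation; other list members were named after their values were seen. Some list genes are not reported here. Alternatives were filters on dim genes, averaged probe sets, a second quantile normalization, centring on array medians, only the compared groups, 1 array weight per group, an intensity trend in the prior, a replicate block and leaving out each array.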

Additional observations from a re-analysis of the deposited data

How the results depend on the processing

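The calls of Id2 in all comparisons, and of Id3 in the 2 comparisons with osteoblasts, held under every alternative run. Calls near the threshold moved. When the fit held the compared groups alone, Id1 was 0.69 between osteosarcoma and osteoblasts (adjusted p = 0.0853) and Id4 was 0.60 between osteosarcoma and pre-osteoblasts (0.0883), which left 1 Id gene called there. With only genes above the median level, Id3 was called between these groups (0.58, adjusted p = 0.0485). Id1, not called between them, turned to 0.0142 with quantile normalization again and to 0.0091 with centred arrays. The median of all genes between these groups went from -0.0159 to 0.0463 and to 0.0357. Centring moves all genes by the same amount, so Id1 moved there as far as that median. For the second quantile normalization the cause was not tested. In every comparison these scalings moved the median of all genes by under 0.1. Each Id gene has 1 probe set, so averaging probe sets could not change its level.

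With 1 array left out, Id1 lay between 0.43 and 0.85 for osteosarcoma against osteoblasts, between -0.30 and 0.12 against pre-osteoblasts (0.06 without line 2 or pre-osteoblast culture 2, 0.12 without line 3) and between -0.86 and -0.63 for osteoblasts against pre-osteoblasts. Id3 lay between 0.44 and 0.72 for osteosarcoma against pre-osteoblasts, and Id4 between 0.42 and 0.79 there and between 0.23 and 0.60 against osteoblasts. From 1 to 3 Id genes were called between osteosarcoma and pre-osteoblasts.

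Replicate numbers are shared by the Kusa4b10 groups. Deviations of same-numbered cultures correlated at 0.152, 0.176 and 0.0278 across genes, so the numbers were not taken to pair the cultures, and osteoblast culture 3 correlated best with pre-osteoblast culture 1 (0.0766). With the replicate block, Id2 was -1.87 in osteoblasts against pre-osteoblasts (adjusted p = 8.35e-04). In that fit 3 Id genes were called and no Id call changed. It called 4 BMP receptors and 5883 genes in all, against 2 and 5202 in the main fit, which held all groups. The receptor count was also 4 without the block when the fit held the compared groups alone. The part of the block itself in these changed counts was not tested. Of the list results, 16 moved and 259 did not under the settings other than leaving out 1 array, and 27 moved and 270 did not with 1 array left out.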
